A study of Mus musculus with 4 samples.

Results

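The genes described here are those that the deposited peak lists annotate to the pathway axon guidance, ko04360 of the KEGG database, without the Wnt and Fzd genes and Met. Of 7235 genes named in either list, 103 carry that annotation. Leaving out Wnt4, Wnt5b and Met gave 100 genes, of 2103 named genes with any pathway text. They comprise 25 ligands, 24 receptors or surface channels, and 51 intracellular signalling genes.

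Axon guidance is the steering of growing nerve fibres by attractive and repulsive cues. Ephrins signal to Eph receptors, semaphorins to plexins with neuropilins, netrins to DCC and Unc5 receptors, and slits to Robo receptors. Receptors act through small GTPases, their regulators and kinases on actin and its binding proteins. Many of these molecules are also used outside the nervous system. In muscle, the netrin and semaphorin systems are known from myoblast differentiation and from the signals between muscle and motor nerve.

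The study mapped MyoD, a master regulator of muscle differentiation that binds DNA as a bHLH factor, by ChIP-seq in mouse myotubes, the fused cells that mature into muscle fibres. They came from primary myoblasts of C57BL/6 mice aged 2 weeks. After 5 days of differentiation in 2% horse serum they spent 24 hours in that medium with pyruvate or without it. Each condition had 1 MyoD ChIP library and 1 input, and all groups shared the strain, cell type and differentiation. Whether cells of several mice were pooled is not given in the sources used here. Which list stands for which condition rests on the sample titles alone, since an abbreviation in the deposited names can be read the other way.

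The list with pyruvate held 11907 peaks and the list without held 19338. Depth is unknown, so an absent peak may reflect the limit of detection. A single library stood for each condition, so the differences carry no replicate error and no p-values are given. Of 7 myotube markers, 7 had a peak in the list with pyruvate and 6 in the list without. Of 5 neuronal markers 1 and 3 did, of 3 fibroblast markers 0 and 1, of 2 endothelial markers 2 and 2, and of 3 Schwann cell markers 0 and 0. Snap25, Col1a1, Pdgfra, Sox10 and S100b were among those with none in either list. A peak shows binding at a gene and not its expression, so these counts do not check which cells were present.

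The 100 genes carried 131 peaks in the list with pyruvate and 219 in the list without, counted in the gene body or its 2-kb flanks. A peak lay in 64 genes in both lists, against 55.1% of all named genes. In 4 genes it was seen only in the list with pyruvate (9.95% of all named genes) and in 32 only in the list without (35.0%). The 95% exact binomial intervals were 53.8 to 73.4% for both lists, 1.10 to 9.93% for the list with pyruvate alone and 23.0 to 42.1% for the list without alone. They cover counting error only. For both lists and for the list without pyruvate alone, the share over all genes lay inside these intervals. For the list with pyruvate alone it lay just above the upper bound.

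The 4 genes with a peak only in the list with pyruvate were Ntn3, Sema3f, Camk2b and Pard6g, each with 1 peak. Of the 32 in the other list alone, 23 had 1 peak and 4 had 3 or more. By number of peaks, 62 genes had more in the list without pyruvate (53.8% of all named genes did), 12 had more in the list with pyruvate (16.9%) and 26 had equal numbers. The longer list thus led at most of these genes, as it did over all genes. With that list limited to its 11907 widest peaks, as many as the shorter holds, these genes carried 131 peaks in each. A peak was then seen at 10 genes only with pyruvate and at 17 only without, of 85 that kept a peak. These were 11.8% and 20.0%, against 22.3% and 20.6% of all genes that kept a peak.

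Of the 131 peaks in the list with pyruvate, 94 overlapped a peak of the other list by at least 1 base, or 71.8% (63.2 to 79.3), against 71.8% of all peaks in that list. Of the 219 in the list without pyruvate, 95 did, or 43.4% (36.7 to 50.2), against 44.2% of all its peaks. The overlap at axon guidance genes was therefore that of the lists as a whole within counting error. Of the 64 genes with a peak in both lists, 61 had at least 1 overlapping pair, or 95.3% (86.9 to 99.02), against 94.7% of the 3984 genes of the files with a peak in both lists. The other 3, with Limk1 and Ryk among them, had peaks at different places in the 2 lists.

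Peaks were called promoter-proximal within 2 kb of a located start site, or in a 2-kb flank of a gene whose body is not listed, so that the side of the flank is unknown. Such a peak was in both lists at 12 of the 100 genes (18.7% of all named genes), only in the list with pyruvate at 2 (6.01%) and only in the list without at 11 (17.7%). With located starts alone the counts were 7, 2 and 4, so many of these calls rest on flanks that may lie downstream of the gene.

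Among ligands, 16 of 25 genes had a peak in both lists, 2 only with pyruvate and 7 only without. They held 34 peaks in the list with pyruvate and 63 in the list without. Among receptors and surface channels, 14 of 24 had a peak in both lists and 10 only in the list without pyruvate, with 27 and 51 peaks. Among intracellular genes the counts were 34, 2 and 15 of 51 genes, with 70 and 105 peaks. Ligands and receptors together had a peak in both lists at 61.2%, only with pyruvate at 4.08% and only without at 34.7%. For intracellular genes these shares were 66.7%, 3.92% and 29.4%, and over all named genes 55.1%, 9.95% and 35.0%. The lists as a whole held 11907 and 19338 peaks.

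**Figure D1:**
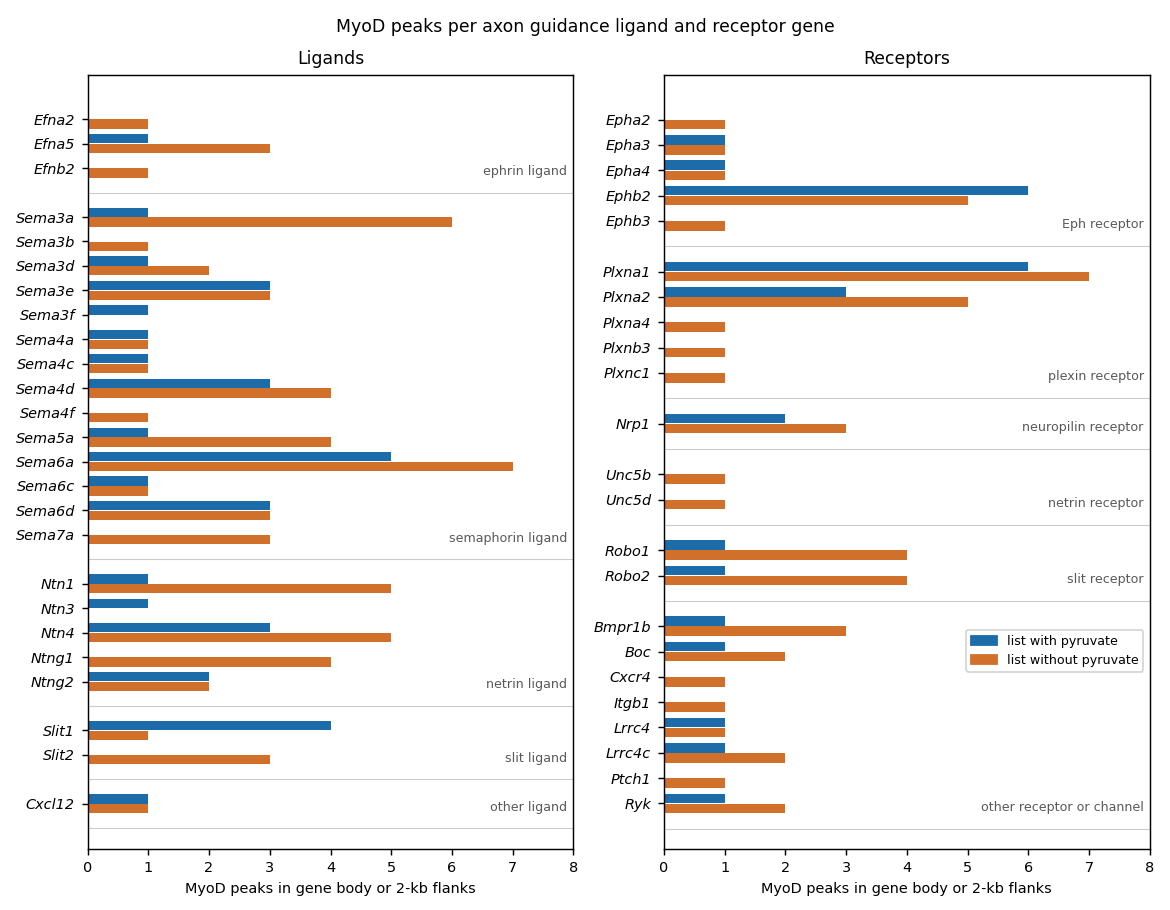
Number of MyoD peaks in the gene body or 2-kb flanks (horizontal axis) for ligand genes (left panel) and most receptor genes (right panel), with 1 bar per peak list. Plxna1 has 6 and 7 peaks and Ephb2 6 and 5, while Slit1, with 4 and 1, has more in the list with pyruvate.

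Ephrins are membrane-bound ligands of the Eph receptor tyrosine kinases. Of 8 ephrin genes in a list of pathway genes drawn up by role, 3 had a peak. Of all 183 genes in that role list, 100 had a peak and the pathway annotation. The peak lists name only genes with a peak, so the share of all mouse genes with one is not known. Efna5, an ephrin anchored by a lipid, had 1 peak in the list with pyruvate and 3 in the list without. The peak it had in both lists lay 105 kb inside the gene and was 206 and 303 bases wide. Efnb2, a transmembrane ephrin, had 1 peak (190 bases) and Efna2 had 1 (231 bases, chr10:79640281-79640512), both only in the list without pyruvate. The Efna2 peak lies in a 2-kb flank whose side, upstream or downstream, the files do not show. Ephrin ligands thus carried a total of 1 peak with pyruvate and 5 without, where all 100 genes carried 131 and 219. A peak only in the list without pyruvate was seen at 35.0% of all named genes.

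Of 14 Eph receptor genes, 5 had a peak. Ephb2 had 6 peaks in the list with pyruvate and 5 in the list without, of which 3 in each overlapped. Its widest peak, 455 bases at chr4:136291698-136292153, was seen only in the list with pyruvate, 99750 bases inside the gene. The overlapping peaks were 184, 246 and 276 bases wide in the list with pyruvate and 225, 144 and 204 bases in the list without. Ephb2 was among the 12 genes with more peaks in the shorter list.

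Epha4, which serves as a receptor for ephrins of both classes, had 1 peak in each list at the same place, 216 bases wide with pyruvate and 543 bases without (chr1:77457387-77457930). Among the 94 overlapping pairs this was the largest ratio of widths, 2.51. Epha3 had 1 peak in each list, 252 and 183 bases wide. Epha2 (204 bases) and Ephb3 (176 bases) had a peak only in the list without pyruvate, each in a flank of unknown side (chr4:140886410-140886614 and chr16:21204600-21204776). Both are narrow peaks, below the median width of 241 bases of that list.

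Semaphorins are secreted or membrane-bound cues, many of them repulsive. They were the largest ligand family, with a peak at 14 of 20 genes (100 of 183 over the role list). Of the 14, 10 had one in both lists, as did 55.1% of all named genes. The semaphorin genes held 21 peaks in the list with pyruvate and 37 in the list without, of which 18 in each overlapped. The 3 peaks with pyruvate that had no partner were at Sema3e, Sema3f and Sema4d.

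Sema6a, a transmembrane semaphorin, had 5 peaks in the list with pyruvate, and all of them had a partner among its 7 peaks in the list without. The first lay 2310 bases from the gene start in the list with pyruvate and 2259 in the other, just outside the 2-kb window used for promoters. The 5 shared peaks were 212 to 396 bases wide with pyruvate and 190 to 295 without. The 2 further peaks of the list without pyruvate were 227 and 254 bases wide.

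Sema3a, a secreted repellent that acts through neuropilin, had 1 peak with pyruvate and 6 without. The shared peak, 215 and 341 bases wide, lay 259 kb inside a gene of 477 kb. Sema5a had 1 and 4 peaks, with the shared one 367 and 483 bases wide. At both genes the further peaks of the list without pyruvate had no partner and were narrower than the shared peak, at 148 to 334 bases for Sema3a and 178 to 220 for Sema5a.

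Sema3e, Sema6d, Sema4a, Sema4c and Sema6c had equal numbers in the 2 lists, namely 3, 3, 1, 1 and 1. At Sema6d all 3 peaks overlapped, the last of them 494 kb from the start of a gene of 578 kb. The peak of Sema6c was 325 and 303 bases wide and lay 3596 and 3576 bases from its start. Sema7a, which is anchored by a lipid and can signal through an integrin, had 3 peaks only in the list without pyruvate (369, 203 and 218 bases). Sema3b (226 bases) and Sema4f (337 bases) had 1 there as well. Sema3f had its peak, 242 bases wide, only in the list with pyruvate (chr9:107596977-107597219).

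A promoter-proximal peak was present in both lists at 3 semaphorin genes. At Sema4d, which signals to plexin B receptors, it lay 722 bases inside the gene and was 375 bases wide with pyruvate (chr13:51888019-51888394) and 228 bases without (chr13:51888149-51888377). At Sema4c it was 225 and 297 bases wide, in a flank of unknown side that is also a region of an unnamed gene. At Sema3d, a secreted semaphorin, the peak began 60 bases after the start in the list with pyruvate (chr5:12383226-12383487, 261 bases) and 40 bases after it in the list without (chr5:12383206-12383509, 303 bases).

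The promoter of Sema3d is shown because the peak begins inside this window in the list without pyruvate. The stretch runs from 250 bases before to 50 bases after the RefSeq start, on the plus strand, chr5:12382916-12383215 of GRCm38.p6. Capitals mark CANNTG, the E-box that bHLH factors recognise. The pattern is its own reverse complement, so both strands are searched at once.
Sema3d promoter: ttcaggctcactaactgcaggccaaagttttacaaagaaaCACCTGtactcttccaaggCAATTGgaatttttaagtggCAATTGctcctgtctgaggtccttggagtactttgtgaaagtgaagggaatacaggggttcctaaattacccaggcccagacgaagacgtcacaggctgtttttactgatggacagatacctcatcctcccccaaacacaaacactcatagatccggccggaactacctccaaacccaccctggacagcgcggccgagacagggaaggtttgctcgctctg
The 3 matches lie at 210, 191 and 171 bases before the start by their first base, upstream of the peak in both lists. One is CACCTG and the others are CAATTG. Of all 32851 RefSeq promoters of this length, 72.3% hold a CANNTG, 16.3% a CAGCTG and 20.2% a CACCTG on either strand. For the 109 promoters of the axon guidance genes these shares are 59.6%, 15.6% and 21.1%. A match is a run of letters and not a measured site.

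Netrins are secreted cues related to laminin, and the Ntng genes encode lipid-anchored relatives. Of 6 netrin genes 5 had a peak, with 7 peaks in the list with pyruvate and 16 in the list without. Ntn4, a netrin of basement membranes, had 3 peaks with pyruvate and 5 without. Its shared peaks lay 2264 and 48230 bases from the start in the list with pyruvate. The first was 205 and 255 bases wide and the second 273 and 472 bases. Ntn1, the founding netrin, had 1 and 5 peaks, and the shared one was 411 and 425 bases wide (chr11:68084578-68084989 in the list with pyruvate). Ntng2 had 2 in each list, both overlapping, with the wider at 418 and 486 bases.

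A pair of netrin genes had peaks in 1 list only. Ntng1 had 4 peaks in the list without pyruvate, 167, 305, 172 and 209 bases wide, and 3 of them lay within 4360 bases of each other. Ntn3 had its peak of 251 bases only in the list with pyruvate (chr17:24341147-24341398), and that peak also lies in a region of the neighbouring gene Tbc1d24. Of the receptors for netrins, Unc5b (201 bases) and Unc5d (342 bases) had 1 peak each, only in the list without pyruvate.

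Slits are large secreted repellents that bind Robo receptors. Slit1 had 4 peaks with pyruvate and 1 without. The peaks were 211, 278, 218 and 440 bases wide, and the second had the partner of 253 bases in the list without. They lay between 122692 and 137387 bases from the start of a gene of 143 kb. Slit2 had 3 peaks (179, 402 and 187 bases) only in the list without pyruvate. Its receptors Robo1 and Robo2 had 1 peak with pyruvate and 4 without, each with 1 shared peak, of 284 and 287 bases at Robo1 and 340 and 412 bases at Robo2. In this family the 2 ligands differed in which list held more peaks, and the 2 receptors did not. More peaks without pyruvate were also seen at 53.8% of all named genes.

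Plexins are the receptors of semaphorins. Of 9 plexin genes in the role list, 5 had a peak and the pathway annotation, with 9 peaks with pyruvate and 15 without. Plxnd1, named without the annotation, had 2 and 3 peaks. Plxna1 had the most peaks of all 100 genes over both lists, 6 and 7, in a gene of 46.3 kb. Of these, 5 stood in a row of 5561 bases in the list with pyruvate, chr6:89294967-89300528, and 6 in a row of 5507 bases in the list without, chr6:89294984-89300491. All peaks in this row had a partner. No other gene of the pathway had more than 3 peaks in a row with gaps of at most 5 kb.

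In that row the list with pyruvate held a peak of 837 bases at chr6:89295372-89296209, the widest of the axon guidance genes, with 21 wider peaks among all 11907. The list without pyruvate had 2 separate peaks of 306 and 372 bases in its place, both overlapping it. The other peaks of the row were 327, 393, 283 and 530 bases wide with pyruvate and 285, 388, 208 and 511 bases without. Outside the row, a peak of 376 bases was seen only with pyruvate, and one of 244 bases in the upstream flank, 1816 bases before the start, only without.

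Plxna2 had 3 peaks with pyruvate and 5 without, and the 3 had partners. One spanned the gene start in both lists, 268 bases wide at chr1:196445955-196446223 and 300 bases at chr1:196445942-196446242. The second, 2894 and 2868 bases inside the gene, was 385 and 213 bases wide. Plxna4 (270 bases), Plxnc1 (220 bases) and Plxnb3 (209 bases, in a flank of unknown side) had 1 peak each, only in the list without pyruvate. Nrp1, a neuropilin that pairs with plexins and also binds VEGF, had 2 peaks with pyruvate (276 and 365 bases), both with a partner (355 and 490 bases), and 1 more of 170 bases only without.

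The Plxna2 promoter is shown because it was the receptor start that MyoD peaks spanned in both lists. In gene coordinates the peak ran from 68 bases before to 200 after the start with pyruvate, and from 81 before to 219 after without. The window is chr1:194619579-194619878 of GRCm38.p6, plus strand.
Plxna2 promoter: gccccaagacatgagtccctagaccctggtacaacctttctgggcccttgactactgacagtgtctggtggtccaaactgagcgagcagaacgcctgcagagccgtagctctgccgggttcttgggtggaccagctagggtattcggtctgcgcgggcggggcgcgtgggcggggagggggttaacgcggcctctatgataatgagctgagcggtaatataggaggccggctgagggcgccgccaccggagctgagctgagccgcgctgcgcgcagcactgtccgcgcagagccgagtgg
No CANNTG is in these 300 bases, and the sequence of the rest of the peak was not used here.

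The remaining ligand and receptors act beside these families. Cxcl12, a chemokine, had 1 peak per list at the same place, 380 bases wide with pyruvate (chr6:117125196-117125576) and 641 without (chr6:117124987-117125628), the second widest peak of the pathway. Its receptor Cxcr4 had 1 peak only in the list without pyruvate, 203 bases wide and 847 bases from the start (chr1:130487820-130488023). Itgb1, an integrin subunit, had a peak of 169 bases there in a flank of unknown side (chr8:131208946-131209115), and Ptch1, a hedgehog receptor, one of 182 bases. Boc, a surface protein of myoblasts and a hedgehog coreceptor, had 1 and 2 peaks, the shared one 179 and 256 bases wide. Bmpr1b had 1 and 3, Lrrc4c 1 and 2, Lrrc4 1 and 1, and Ryk 1 and 2 with no overlap. The peak of Lrrc4 also lies in a region of Snd1.

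Over all 49 ligands and receptors, the proximal peak was in both lists at 4 (Plxna2, Sema3d, Sema4c and Sema4d). In 7 it was seen only in the list without pyruvate, namely Cxcr4, Efna2, Epha2, Ephb3, Itgb1, Plxna1 and Plxnb3. The shares were 8.16% (2.27 to 19.6) for both lists and 14.3% (5.94 to 27.2) for the list without alone. Over all named genes they were 18.7% and 17.7%, inside these intervals. The peaks of these 7 were 169 to 244 bases wide, and for Efna2, Epha2, Ephb3, Itgb1 and Plxnb3 the side of the flank is not known.

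Of 51 intracellular genes, 8 carried such a peak near the start in both lists (15.7%, against 18.7% of all named genes). Among them was Enah, whose protein promotes the growth of actin filaments. Enah had a peak 1793 and 1766 bases before the start (363 and 305 bases) and, only with pyruvate, one of 179 bases across the start. Srgap3, a GTPase-activating protein in slit signalling, had a peak 1194 and 1167 bases before the start (360 and 339 bases). Ppp3ca, a catalytic subunit of calcineurin, had one 342 and 336 bases before it (259 and 270 bases, chr3:136332487-136332746 with pyruvate). These genes each had a proximal peak at the same place in both lists.

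The kinase genes Fes, Src and Gsk3b and the GTPase gene Rhod were also among the 8, all with a peak in a flank of unknown side. The Fes peak was 294 bases wide with pyruvate and 577 without (chr7:87520360-87520937). The Src peak was 252 and 382 bases wide, that of Rhod 278 and 314, and that of Gsk3b 200 and 273. The Gsk3b peak also lies in a region of Nr1i2, and the Rhod peak in that of an unnamed gene. All 4 were wider in the list without pyruvate, as was the Ppp3ca peak, while the shared proximal peaks of Enah and Srgap3 were wider with it. Over all 8555 pairs, 5258 were wider without pyruvate and 3246 with it.

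Limk1 was 1 of 2 intracellular genes with a proximal peak only in the list with pyruvate. Limk1, the LIM kinase that phosphorylates cofilin, had a peak of 316 bases (chr5:135164479-135164795) that ended 19 bases before its start, and in the other list 2 peaks of 216 and 154 bases inside the gene. In the list without pyruvate alone, Pik3r1 (190 bases, 16 bases after the start), Ppp3cb (230 bases), Cdk5 (165 bases) and Cfl1 (160 bases) had one. The last 2 lie in flanks of unknown side that are also regions of Slc4a2 and Mus81.

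The Limk1 promoter is shown because its peak covers most of the window and was seen in 1 list alone. The window is chr5:134688541-134688840 of GRCm38.p6, minus strand, and the peak ran from 335 to 19 bases before the start.
Limk1 promoter: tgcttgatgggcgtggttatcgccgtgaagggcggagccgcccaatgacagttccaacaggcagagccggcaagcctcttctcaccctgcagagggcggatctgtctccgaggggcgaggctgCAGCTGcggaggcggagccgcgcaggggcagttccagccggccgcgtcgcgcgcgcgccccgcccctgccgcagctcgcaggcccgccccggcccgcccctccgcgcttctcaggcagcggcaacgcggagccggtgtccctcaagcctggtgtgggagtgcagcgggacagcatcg
Its 1 match to CANNTG is a CAGCTG that begins 127 bases before the start, inside the peak of the list with pyruvate. The promoter of Pik3r1 was matched too and holds no CANNTG. Enah also has a peak in this window, and its promoter is not shown.

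Further inside genes, Ablim1 had 7 peaks with pyruvate and 5 without, and all 5 had partners. At 2 of the shared peaks the width was 320 and 227 bases with pyruvate and 557 and 531 without. The other shared peaks were 308, 269 and 379 bases wide with pyruvate and 282, 235 and 404 without. Ablim3, its paralogue, had 5 and 1 (chosen after its values were seen, as was Cfl2). The Ablim3 peaks with pyruvate were 241 to 309 bases wide, and 1 had a partner, of 219 bases.

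Nfatc2, a transcription factor activated by calcineurin, had 4 and 7 peaks, with 2 shared (250 and 424 bases with pyruvate, 318 and 457 without). Of its peaks only in the list without pyruvate, 3 stood within 3454 bases. Camk2d, a subunit of calcium/calmodulin-dependent kinase, had 2 and 5 peaks. Its shared peaks were 174 and 281 bases wide with pyruvate and 231 and 318 without. Its widest peak, 554 bases, had no partner (chr3:126532704-126533258) and was the widest unpartnered peak of the pathway. Cfl2, the muscle cofilin gene, had 2 peaks in each list within a body of 4.06 kb, of which 1 was shared (184 and 176 bases). The GTPase regulators Srgap1 (2 and 5), Srgap2 (2 and 3), Ngef (1 and 2), Arhgef12 (0 and 2), Rgs3 (0 and 1) and Srgap3 (2 and 4) all had more in the list without pyruvate. So did 62 of the 100 axon guidance genes and 53.8% of all named genes.

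Peaks of the axon guidance genes had a median width of 269 bases (interquartile range 213 to 326) in the list with pyruvate and 234 bases (191 to 301) in the list without. Peaks in the other genes had medians of 249 and 240 bases. In the list without pyruvate, peaks with a partner had a median of 294 bases and those without one 205.5 bases. In the other list these medians were 277 and 246 bases. Peaks under 200 bases had a partner in 60.9% of cases (14 of 23, interval 38.5 to 80.3) with pyruvate and in 14.5% (9 of 62, 6.86 to 25.8) without, against 54.8% and 19.3% of all peaks of that width. Of peaks of at least 300 bases, 76.7% (33 of 43, 61.4 to 88.2) and 75.9% (44 of 58, 62.8 to 86.1) had one, against 85.4% and 76.6% of all such peaks. The shares over all peaks lie inside the intervals of the axon guidance genes.

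In the 94 pairs, the peak was wider without pyruvate in 53, wider with pyruvate in 39 and equal in 2, with a median difference of 22 bases. Over all 8555 pairs it was wider without pyruvate in 5258, wider with it in 3246 and equal in 51, and the median difference was also 22 bases. Width was the only measure per peak, and sequencing depth and fragment size affect it as well.

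**Figure D2:**
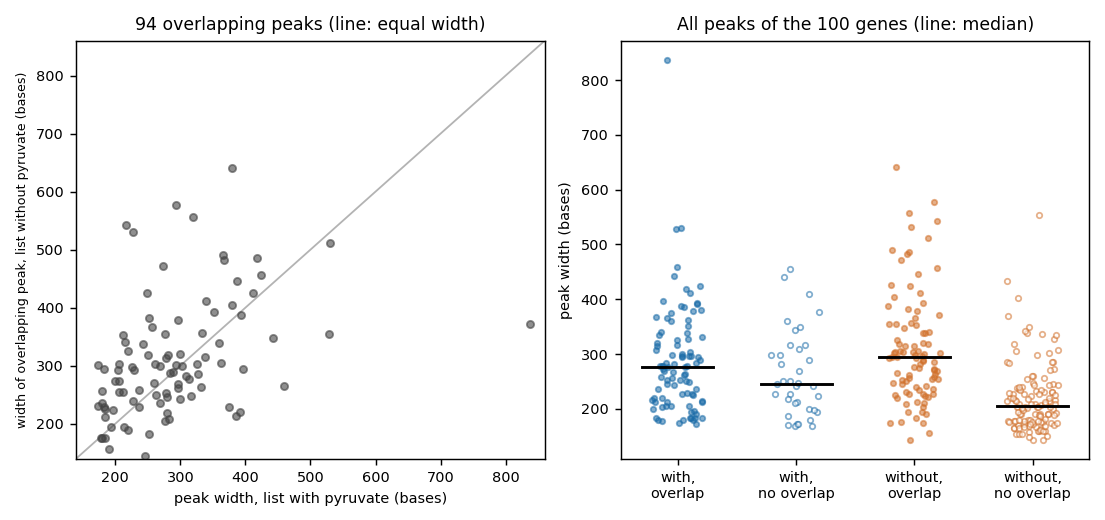
Left, width in bases of each peak of the list with pyruvate against its overlapping peak in the list without, for 94 pairs, with a line of equal width. Right, widths of all peaks of the 100 genes by list and overlap, with the median as a line and points spread sideways for legibility. The unpartnered peaks without pyruvate have the lowest median, 205.5 bases.

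The axon guidance genes were long. The 88 with a located start had a median body of 114 kb (interquartile range 59.1 to 234), against 47.2 kb over all located genes and 51.1 kb over other genes with pathway text. Across these 88 genes, Spearman's rho between body length and number of peaks was 0.21 in the list with pyruvate and 0.48 in the list without, as a description over genes that share 2 libraries. At least 2 peaks were seen at 30 of the 100 genes with pyruvate and at 52 without, against 23.4% and 34.1% of all named genes. The part of gene length in these counts was not tested.

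**Figure D3:**
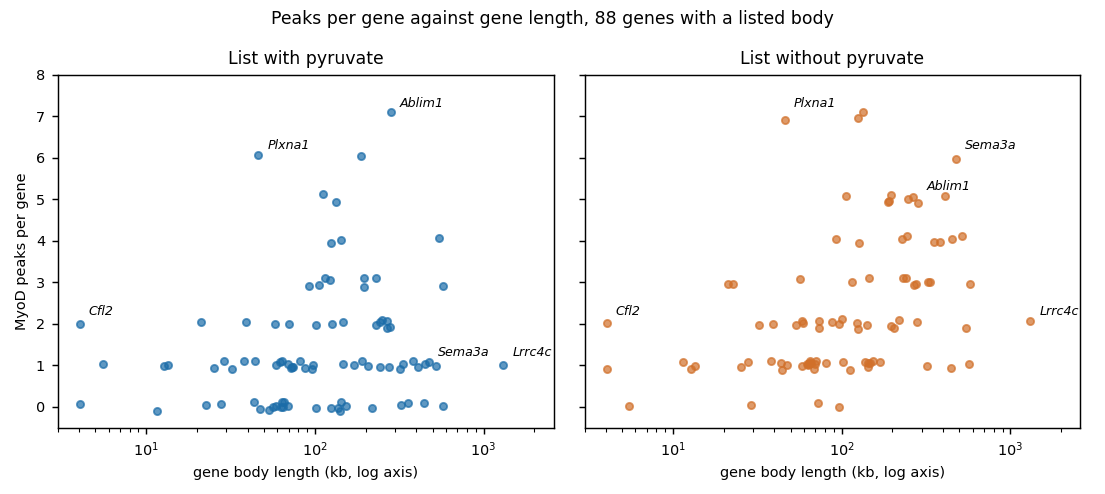
Peaks per gene against gene body length in kb on a log axis, for the 88 genes with a located start, with 1 panel per list and points moved slightly up or down for legibility. Plxna1 stands high for its length of 46.3 kb, while Lrrc4c, the longest gene, has 1 and 2 peaks.

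Most peaks lay inside the genes, 117 of 131 (89.3%) with pyruvate and 198 of 219 (90.4%) without. They were spread along the bodies, with 24.8%, 29.9%, 20.5% and 24.8% in successive 25% stretches from the start with pyruvate, and 29.8%, 25.8%, 20.2% and 24.2% without. Other genes, counted per pair of gene and peak, had a similar spread. Their shares were 29.0%, 23.6%, 23.3% and 23.3% with pyruvate, and 29.7%, 24.2%, 22.5% and 23.1% without. Promoter-proximal peaks were 11.5% (6.55 to 18.2) with pyruvate and 10.96% (7.15 to 15.9) without, against 22.3% (21.4 to 23.3) and 21.4% (20.6 to 22.2) of peaks in other genes. Part of this count follows from the definition, since a flank peak of a gene with no located start counts as proximal. Among genes with a located start, a limit set after seeing the data, the shares were 7.94% (3.87 to 14.1) and 5.80% (3.03 to 9.91) for the 88 axon guidance genes. For the 5730 other genes with a start they were 14.7% (13.8 to 15.5) and 13.8% (13.1 to 14.5), above the axon guidance genes in the list without pyruvate and with intervals that overlap in the other. Within bodies of 59.1 to 234 kb, a range also set after seeing the data, the shares were 10.1% (4.18 to 19.8) and 8.25% (3.63 to 15.6) for 44 axon guidance genes. For 1914 other genes of that length they were 6.31% (5.46 to 7.25) and 5.93% (5.26 to 6.66). In that range the intervals of the axon guidance genes contained the other genes' shares.

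Beyond the annotation, 10 further genes of the role list are named in the files without the pathway. The neuropilin gene Nrp2 had 2 and 5 peaks and the plexin gene Plxnd1 2 and 3. Neo1, a netrin receptor, Dscam, Bdnf and Rgma had 1 each, only in the list without pyruvate. Nfatc1 had 4 there and none in the other list, Evl had 1 and 3, and the myosin light chain genes Myl12a and Myl9 had 3 and 3 and 1 and 1. Of 183 genes of the list in all, 73 had no peak in their body or flanks in either list.

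Many of the 100 genes also belong to other pathways in the deposited annotation. Of them 23 are annotated to regulation of the actin cytoskeleton, against 5.66% of the 2103 genes with pathway text. To ErbB signalling 22 are annotated (2.33%), and to focal adhesion 18 (5.66%). These shares describe the annotation and not the binding.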

How the data were processed

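MyoD ChIP and input libraries of myotubes with and without pyruvate were grouped by sample title, and the inputs were not analysed here. Per the submitters' processing notes, the authors used bcl2fastq 2.19, Bowtie2 2.1.0 and MACS2 2.1.1 on build mm9. How peaks were thresholded, whether inputs served as controls, and which annotation named the genes is not given in the sources used here. Each deposited list belongs to 1 ChIP library and has a row for every gene body or 2000-base flank that a peak touches, per the file headers and the values. The fold enrichment column in the authors' files holds 0 wherever it has a number, so peak width (end minus start) was the measure left, and neither depth nor signal could be computed.

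Rows (13076 and 20902) were reduced to distinct peaks, and gene IDs (7262) were pooled by symbol. Coordinates are as deposited, in mm9. A start came from the listed body, or the stretch between 2 listed flanks, and strand, for 88 of the 100 genes. An overlap of 1 base or more made peaks partners. Intervals are 95% exact (Clopper-Pearson) and cover counting error only. No test was run, with 1 library per condition.

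Ligands and receptors were named with their peaks per list. Positions and widths are given for those with a promoter-proximal peak, the 5 with the most peaks and the 5 genes with the widest peaks. Intracellular genes were named if promoter-proximal or among the 10 with the most peaks, and exceptions are marked or follow from a count. Some genes that these rules take are not reported here. The genes, the role list and these rules were chosen with earlier results of these data known. All 100 symbols were in the RefSeq gene table of GRCm38.p6 and 76 had a promoter there. A promoter was used where the length from its start to the gene's end differed by at most 50 bases from the mm9 body, for 4 genes with a peak in the window. Alternatives were stricter overlap, peaks of at least 250 bases, the widest peaks of the longer list, bodies alone and windows of 1 and 10 kb. The overlap and distance code was tested on simulated data. Software was Python 3.11.15 with pandas 2.3.3, numpy 2.4.6, matplotlib 3.10.9 and scipy 1.17.1.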

Additional observations from a re-analysis of the deposited data

How the results depend on the processing

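Of 42 alternatives for 12 results, 23 stayed within their bounds (the 95% interval of a share, or 1.5 times a count) and 19 moved. Values are given for the list with pyruvate, then without, and the cause was not tested. When peaks under 250 bases were dropped, 76 and 93 peaks were left and 63.2% and 52.7% of them had a partner. Then 39 genes had a peak in both lists and 12 only with pyruvate, and 3 had a promoter-proximal peak only without. With the longer list limited to its widest peaks, as many as the shorter holds, it kept 131 peaks at these genes, equal to the shorter list. Then 61.8% and 62.6% had a partner, 10 genes had a peak only with pyruvate and 17 only without, and 3 had a promoter-proximal peak only without. This limit drops shared peaks too, by construction. Of the 5923 genes of the files that kept a peak under this limit, 22.3% had one only with pyruvate and 20.6% only without, against 11.8% and 20.0% of the 85 axon guidance genes that kept a peak.

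Promoter-proximal peaks in both lists were at 5 genes within 1 kb of located starts, at 19 within 10 kb and at 7 with located starts alone, against 12. Only in the list without pyruvate they were at 3 genes within 1 kb and at 4 with located starts alone, against 11. The 2 genes with one only in the list with pyruvate stayed 2 in number under each alternative. The length range and the limit to located starts for proximal shares were chosen after seeing the data. No paired analysis was possible because each condition had 1 library and no test was run. Leaving out a library would leave nothing to compare. Unknown depth limits every absence of a peak.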
